A study of Homo sapiens with 16 samples.

Results

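ATF3, ATF4, ATF5, DDIT3, CEBPB and CEBPG encode stress response transcription factors of the basic leucine zipper (bZIP) class. They were taken by gene symbol from a deposited table of 17738 genes, and all 6 were found there and passed the filter on low values. The table holds 16 RNA-seq libraries of H1, a wild-type human embryonic stem cell line, 2 for each of 8 groups, made from poly(A) RNA after 24 h of treatment. The cells were kept in E8 medium before the experiment, and all 8 groups share E7, which is E8 from which TGFb is left out. The 4 media were E7 alone and E7 with TGFb (1.74 ng/mL), Activin A (100 ng/mL) or NODAL (100 ng/mL), and each was used without and with 2-deoxyglucose (2DG, 3 mM). 2DG is a glucose analog that is phosphorylated in cells but not carried through glycolysis, and it also disturbs the sugar chains of newly made glycoproteins. The comparisons ask how 2DG changes expression in each medium and how each ligand changes it with and without 2DG. Only 1 cell line was used, and the labels do not say whether the libraries of a group came from separate cultures, so p-values measure only the spread between these libraries.

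As background, bZIP proteins bind DNA as dimers through a basic region followed by a leucine zipper, and the partners in a dimer set the sites that are read. In the integrated stress response, kinases that phosphorylate eIF2alpha slow general translation while the translation of ATF4 rises, because its mRNA carries short reading frames ahead of the coding sequence. ATF4 then acts with partners such as C/EBPgamma, the product of CEBPG, on genes of amino acid supply. ATF4 also acts on the genes of further factors, among them ATF3, ATF5 and DDIT3, the gene of CHOP. ATF6 and XBP1 drive another arm of the response to stress in the endoplasmic reticulum.

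The unit is the normalised read, a recovered whole read divided by the size factor of its library. Recovered reads per library ranged from 14600479 to 17630329, and mitochondrial genes held 5.46 to 6.69% of them. The 10 stem cell markers, among them POU5F1, SOX2 and NANOG, were all in the table, with sums of 136973 to 168176 normalised reads without 2DG and 130245 to 156383 with it. Of the 10, 1 was called higher and 3 lower with 2DG in E7, where 14.8% of all genes were called lower. POU5F1 and NANOG were among the 3, at -0.46 and -0.47 (log2). Activin A gave 3 lower calls without 2DG and 4 with it, and NODAL 4 and 0, with 0 called higher in each. None of 4 blood markers was in the table, and 3 of 7 fibroblast markers were, without COL3A1, LUM, DCN and POSTN. The fibroblast sum was 3825 to 5206 without 2DG and 2734 to 4083 with it, and the mesendoderm sum 201 to 1769 without and 68.5 to 1528 with. In E7 most of the fibroblast sum was THY1 alone, with a mean of 3254 without 2DG and 2350 with it. Of 6 tested mesendoderm markers, 5 were called higher with Activin A without 2DG and 5 with it, and 2 with NODAL without 2DG and 1 with it. Among all 16714 tested genes, 1675 were called in either direction with Activin A without 2DG and 1257 with it, and 3601 and 106 with NODAL. With 2DG, 3 of the 6 were called lower in E7, 2 with TGFb, 0 with Activin A and 1 with NODAL, and their sum in E7 went from 201 and 223 to 76.9 and 68.5. The part of these markers in the results below was not tested, and in bulk RNA a change in the share of cells of a type cannot be told apart from a change in RNA per cell. The library E7+ActivinA+2DG replicate 1 stood apart from its partner in 5 of the 6 members, and the values of the Activin A comparisons without each of the 2 are given below.

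The promoters of 3 members are shown because members rose together with 2DG, and the capitals mark letters of the motifs searched. The stretches come from the RefSeq promoter windows of GRCh38.p14, 5′ to 3′ on the gene's strand, without bases that lie in an annotated exon of any gene. DDIT3 is shown in 2 pieces of 1 window on the minus strand, chr12:57520744-57520767, which holds TGACTCA 238 bases before the start, and chr12:57520518-57520709, which holds 3 GC boxes and ends at the start. CEBPG is shown at chr19:33373896-33374112 (plus strand) with TGATGCAA 42 bases and GGGCGG 65 bases before the start. Both starts are alternative ones that lie inside the annotated gene, so these pieces are intronic to its longer transcripts. ATF3 is shown at chr1:212565157-212565333 (plus strand), a stretch that ends 73 bases before the start, with TGATGGAA.
DDIT3, distal piece: cgcgcgcgcgcaTGACTCAcccac
DDIT3, proximal piece: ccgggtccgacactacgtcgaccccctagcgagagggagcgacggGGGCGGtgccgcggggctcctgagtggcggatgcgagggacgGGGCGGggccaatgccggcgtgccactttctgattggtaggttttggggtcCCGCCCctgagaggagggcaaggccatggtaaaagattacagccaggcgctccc
CEBPG: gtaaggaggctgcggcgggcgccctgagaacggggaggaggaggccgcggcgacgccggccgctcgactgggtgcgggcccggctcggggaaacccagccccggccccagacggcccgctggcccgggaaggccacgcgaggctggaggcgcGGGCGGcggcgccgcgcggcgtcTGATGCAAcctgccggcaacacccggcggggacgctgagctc
ATF3: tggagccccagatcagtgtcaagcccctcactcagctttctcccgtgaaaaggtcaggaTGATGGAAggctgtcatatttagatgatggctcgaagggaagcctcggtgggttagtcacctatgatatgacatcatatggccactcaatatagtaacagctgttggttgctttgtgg

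The search covered both strands of the 250 bases before each of 13 member starts. TGATGNAA, the composite element read by C/EBP and ATF dimers, was present in ATF3 and CEBPG. It was in 3.14% of all 35116 windows, or in 2.38% of the tested genes that had a window. TGACTCA, the AP-1 site, was present in DDIT3 and ATF5, in 4.20% of the windows and in 4.01% of those tested genes. TGACGTCA, the cAMP response element, was in none of the 6 and in 1.65% of the windows, and the ER stress element was in none and in 0.074%. GGGCGG, the GC box, was in all 6 members and in 42.6% of windows, or in 74.5% of the tested genes that had a window. A match describes letters in this window only. Only exact matches were counted, so a near match was not. The DDIT3 proximal piece shown above holds a stretch that differs from the ER stress element searched only in its last letter. Its absence from the count therefore does not show that DDIT3 lacks such an element.

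The mRNA leaders, the stretches before the coding sequence, were searched for reading frames that open with ATG ahead of the main start in GENCODE 29. The principal ATF4 transcript had a leader of 882 bases with 7 such frames, of which 5 closed inside the leader and 2 ran past the main start in another frame. The principal ATF5 transcript had 2, of which 1 overlapped the main start, CEBPG had 3 that all closed, ATF3 had 1 that overlapped the main start, and DDIT3 had 1 that overlapped it and an ATG in frame with the coding sequence 117 bases before it, which is not counted as a separate frame. The CEBPB transcript had none. Every annotated coding transcript of ATF4, ATF5, CEBPG and DDIT3 carried at least 1 such frame, and 3 of 4 of ATF3 did. Over the tested protein-coding genes, 52.9% had a frame of this kind and 17.5% had one that overlapped the main start, with a median leader of 202 bases.

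ATF4, the factor whose protein is set largely by translation (chr22:39519695-39522685, plus strand), had by far the most reads of the 6 and changed least with 2DG. In E7 the libraries had 9251 and 9961 normalised reads without 2DG, and 9820 and 10500 with it. With TGFb they had 7875 and 7831 without and 10491 and 10727 with 2DG. With Activin A they had 9722 and 7091 without and 8957 and 9783 with 2DG, and with NODAL 6712 and 6085 without and 9365 and 9265 with. The libraries with and without 2DG overlapped in E7 and in the Activin A medium and did not overlap in the TGFb and NODAL media. The log2 fold change with 2DG was 0.08 in E7 (95% interval -0.18 to 0.34, limma adjusted p = 0.643), 0.43 with TGFb (adjusted p = 0.0379), 0.17 with Activin A (adjusted p = 0.428) and 0.54 with NODAL (adjusted p = 0.0196). As a mean over the 4 media it was 0.31 ± 0.06 (SE, adjusted p = 0.00143).

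ATF5, a relative of ATF4 whose translation is also set by upstream frames (chr19:49928702-49933935, plus strand), rose with 2DG in all 4 media. In E7 the libraries had 148 and 174 normalised reads without 2DG and 1881 and 2289 with it. With TGFb they had 164 and 158 without and 2380 and 2164 with, and with NODAL 131 and 114 without and 1377 and 1276 with. With Activin A they had 186 and 151 without and 511 and 1496 with. All 8 libraries with 2DG lay above all 8 without, and the lowest with 2DG was Activin A replicate 1. The log2 fold change was 3.68 ± 0.33 in E7 (2 libraries against 2, SE pooled over the 8 groups, limma adjusted p = 5.83e-05), 3.81 ± 0.33 with TGFb (adjusted p = 2.93e-05), 2.38 ± 0.33 with Activin A (adjusted p = 0.00418) and 3.43 ± 0.33 with NODAL (adjusted p = 0.00011). ATF5 shares 21.2% of its exonic bases with NUP62 on the opposite strand, and the strand setting of the counting is not given in the sources used here, so their reads may not have been told apart. NUP62 had 921 to 1187 normalised reads without 2DG and 791 to 1015 with it.

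DDIT3 encodes CHOP, a C/EBP relative that dimerises with other family members and takes part in cell death after lasting stress (chr12:57516588-57521737, minus strand). Without 2DG it was low, with 32.6 and 44.7 normalised reads in E7, 21.0 and 31.9 with TGFb, 48.8 and 19.8 with Activin A, and 13.7 and 21.7 with NODAL. With 2DG it had 321 and 428 in E7, 410 and 417 with TGFb, 153 and 379 with Activin A, and 145 and 132 with NODAL. Every library with 2DG lay above every library without. With 2DG the log2 fold change was 3.25 ± 0.43 in E7 (SE, limma adjusted p = 0.000417), 3.95 ± 0.43 with TGFb (adjusted p = 0.000152), 2.91 ± 0.43 with Activin A (adjusted p = 0.00558) and 2.93 ± 0.43 with NODAL (adjusted p = 0.00174). The lowest library, E7+NODAL replicate 1, rested on 13 recovered reads, with a 95% Poisson interval of 7.31 to 23.5 normalised reads that covers counting error only. DDIT3 shares 27.2% of its exonic bases with MARS and 4.44% with MBD6 on the opposite strand, and the same limit holds. AC022506.1, a gene on the same strand that the deposited table does not hold, shares 8.03% of them. MARS had 3705 to 4844 normalised reads without 2DG and 4693 to 7878 with it, and MBD6 132 to 253 and 235 to 375. The part of these genes in the DDIT3 values was not tested.

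ATF3, a factor that forms dimers with Jun proteins and others and often represses (chr1:212565334-212620777, plus strand), also separated fully by 2DG. It had 245 and 254 normalised reads in E7, 246 and 275 with TGFb, 190 and 182 with Activin A, and 221 and 261 with NODAL, all without 2DG. With 2DG it had 525 and 648 in E7, 641 and 618 with TGFb, 404 and 1002 with Activin A, and 409 and 392 with NODAL. The smallest step between a medium with and without 2DG was thus in NODAL. The log2 fold change was 1.22 ± 0.28 in E7 (SE, limma adjusted p = 0.00631), 1.27 ± 0.28 with TGFb (adjusted p = 0.0125) and 1.77 ± 0.28 with Activin A (adjusted p = 0.00881). With NODAL it was 0.73 ± 0.28 and did not pass (adjusted p = 0.142).

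CEBPB encodes C/EBPbeta, a partner of ATF4 and CHOP made in long and short protein forms (chr20:50190734-50192689, plus strand, a single exon). Without 2DG it had 250 and 314 normalised reads in E7, 234 and 202 with TGFb, 294 and 202 with Activin A, and 249 and 209 with NODAL. With 2DG it had 659 and 825, 808 and 711, 384 and 738, and 558 and 463 in the same order. All 8 libraries with 2DG lay above all 8 without. In log2 terms CEBPB rose by 1.39 ± 0.26 in E7 (SE, limma adjusted p = 0.00217), 1.80 ± 0.26 with TGFb (adjusted p = 0.00108), 1.13 ± 0.26 with Activin A (adjusted p = 0.0458) and 1.15 ± 0.26 with NODAL (adjusted p = 0.0208). CEBPB shares 11.8% of its exonic bases with CEBPB-AS1 on the opposite strand, which had 1.87 to 12.2 normalised reads without 2DG and 9.55 to 26.2 with it.

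CEBPG encodes C/EBPgamma, which lacks a strong activation domain and works as a dimer partner (chr19:33373330-33382686, plus strand). It had 1603 and 1674 normalised reads in E7, 1538 and 1485 with TGFb, 1324 and 1442 with Activin A, and 1366 and 1319 with NODAL, all without 2DG. With 2DG it had 2486 and 2576, 2671 and 2676, 1668 and 2646, and 1996 and 1989 in the same order. The groups did not overlap within any medium, but Activin A replicate 1 with 2DG lay below E7 replicate 2 without it. For CEBPG the log2 fold change was 0.63 ± 0.15 in E7 (SE, limma adjusted p = 0.00778), 0.82 ± 0.15 with TGFb (adjusted p = 0.00456), 0.60 ± 0.15 with Activin A (adjusted p = 0.060) and 0.57 ± 0.15 with NODAL (adjusted p = 0.040).

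**Figure D1:**
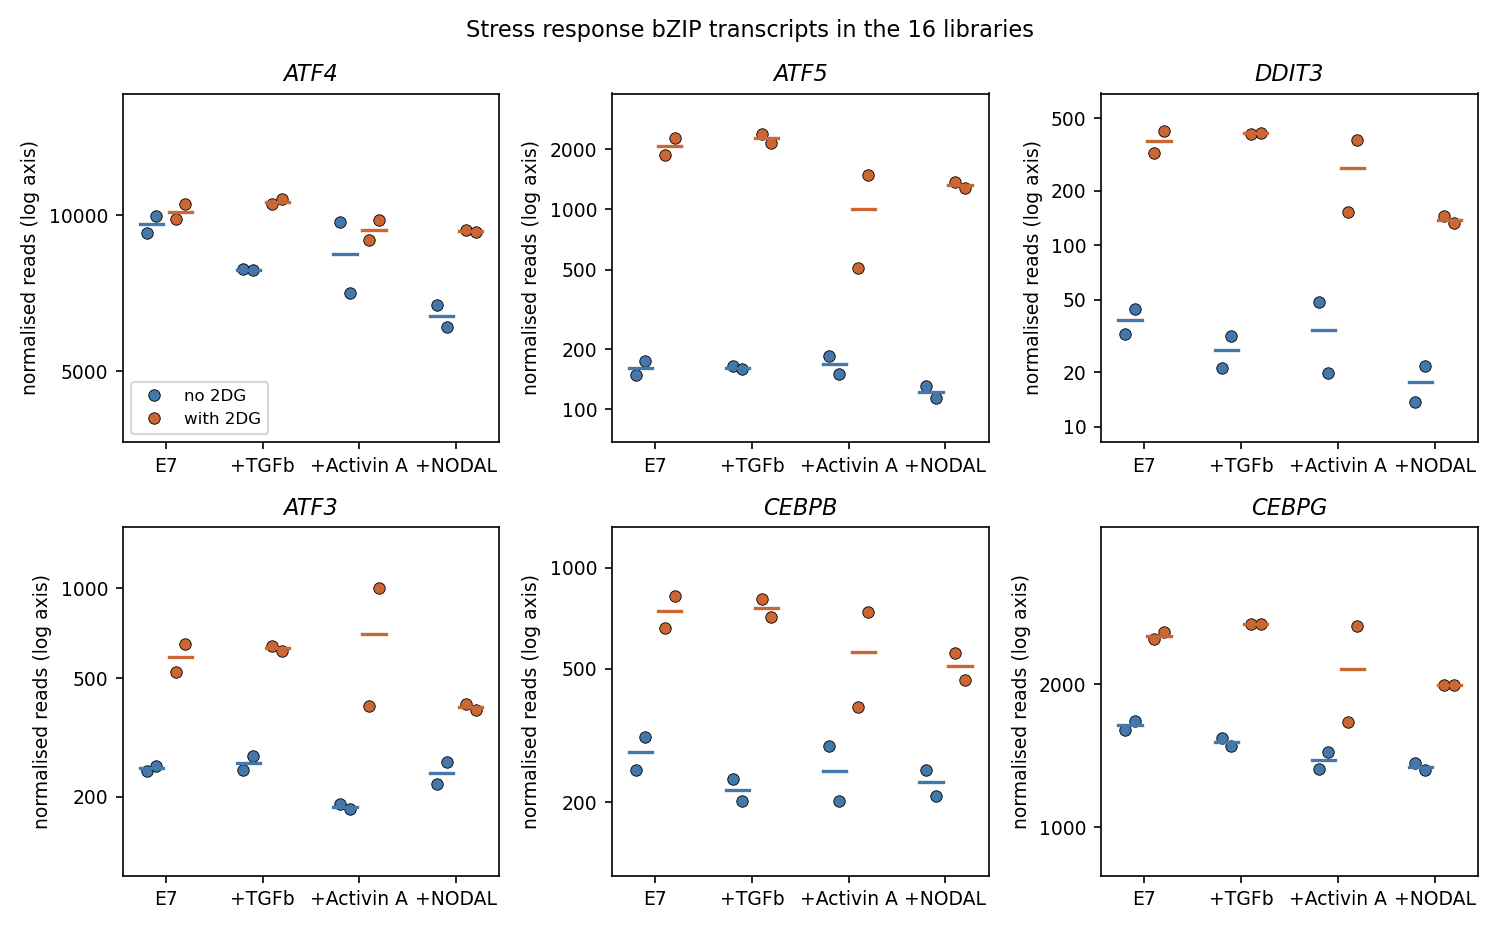
Normalised reads of the 6 genes (log axis, a different range in each panel) in the 4 media, without 2DG in blue and with 2DG in orange. Points are libraries and bars are means of 2. ATF3, ATF5, CEBPB and DDIT3 separate fully by 2DG, ATF4 spans only 6085 to 10727, and the 2 libraries with Activin A and 2DG lie far apart in 5 of the 6 genes.

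Counted over the members, limma called 5 of 6 higher with 2DG in E7, where 14.6% of all 16714 tested genes were called higher. It called 6 of 6 with TGFb against 5.47% of all genes, 4 of 6 with Activin A against 1.48%, and 5 of 6 with NODAL against 3.11%. As a mean over the 4 media all 6 were called higher, against 19.2% of genes. The member not called was ATF4 in E7, ATF4 and CEBPG with Activin A, and ATF3 with NODAL. The median log2 fold change of the members was 1.31 in E7, 1.54 with TGFb, 1.45 with Activin A and 0.94 with NODAL, and that of all tested genes was -0.003, -0.004, 0.004 and -0.005. The deposited size factors are medians of ratios over the genes, which by itself holds such medians of all genes near 0, here and below. ATF3, ATF5, CEBPB and DDIT3 had all 8 libraries with 2DG above the 8 without, a separation seen in 2.03% of tested genes.

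Several of these calls changed when 1 library was left out, in some cases with little change in the log2 fold change. Over all such omissions, ATF3 stayed at 1.19 to 1.35 and ATF4 at 0.42 to 0.45 in the TGFb medium. CEBPG stayed at 0.54 to 0.59 in the NODAL medium, while values in the Activin A medium moved more. In E7, ATF3 (adjusted p = 0.0559) and CEBPG (0.0504) were not called without E7+2DG replicate 2. In the TGFb medium ATF3 was not called without any 1 of its 4 libraries (0.0732 to 0.0998), CEBPG was not called without E7+TGFb replicate 2 (0.0518), and ATF4 was not called without any 1 of its 4 libraries (0.161 to 0.187) or any E7+2DG, E7+NODAL or E7+NODAL+2DG library (0.0535 to 0.060). In the Activin A medium the 2DG response without E7+ActivinA+2DG replicate 1 was 2.43 for ATF3, 3.15 for ATF5, 3.56 for DDIT3, 1.6 for CEBPB and 0.94 for CEBPG, all 5 called (CEBPG adjusted p = 7.05e-05), and 0.24 for ATF4. Without replicate 2 it was 1.12 for ATF3 and 1.61 for ATF5, both called, and 2.26 for DDIT3 (adjusted p = 0.0739), 0.66 for CEBPB (0.655), 0.27 for CEBPG (0.600) and 0.11 for ATF4 (0.908), not called. CEBPB was not called without any 1 of the 12 libraries outside that medium either (0.0554 to 0.0744). Without E7+ActivinA replicate 1 ATF4 was called (0.40, adjusted p = 0.0351), and without replicate 2 it was at -0.05 (0.678). Of the same omissions the first left CEBPG at 0.54 (0.123) and the second at 0.67 (called, 0.00459). In the NODAL medium ATF4, CEBPB and CEBPG were not called without any 1 of its 4 libraries (0.074 to 0.213), CEBPG was also lost without any 1 of the E7, E7+2DG, E7+TGFb and E7+TGFb+2DG libraries (0.0529 to 0.0642), and ATF3 was called without either E7+ActivinA+2DG library (0.00422 and 0.00438). With the replicate number as a block, ATF4 with TGFb (adjusted p = 0.0519) and CEBPB with Activin A (adjusted p = 0.0636) were not called. ATF5 was called with 2DG in every medium under each of these omissions.

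**Figure D2:**
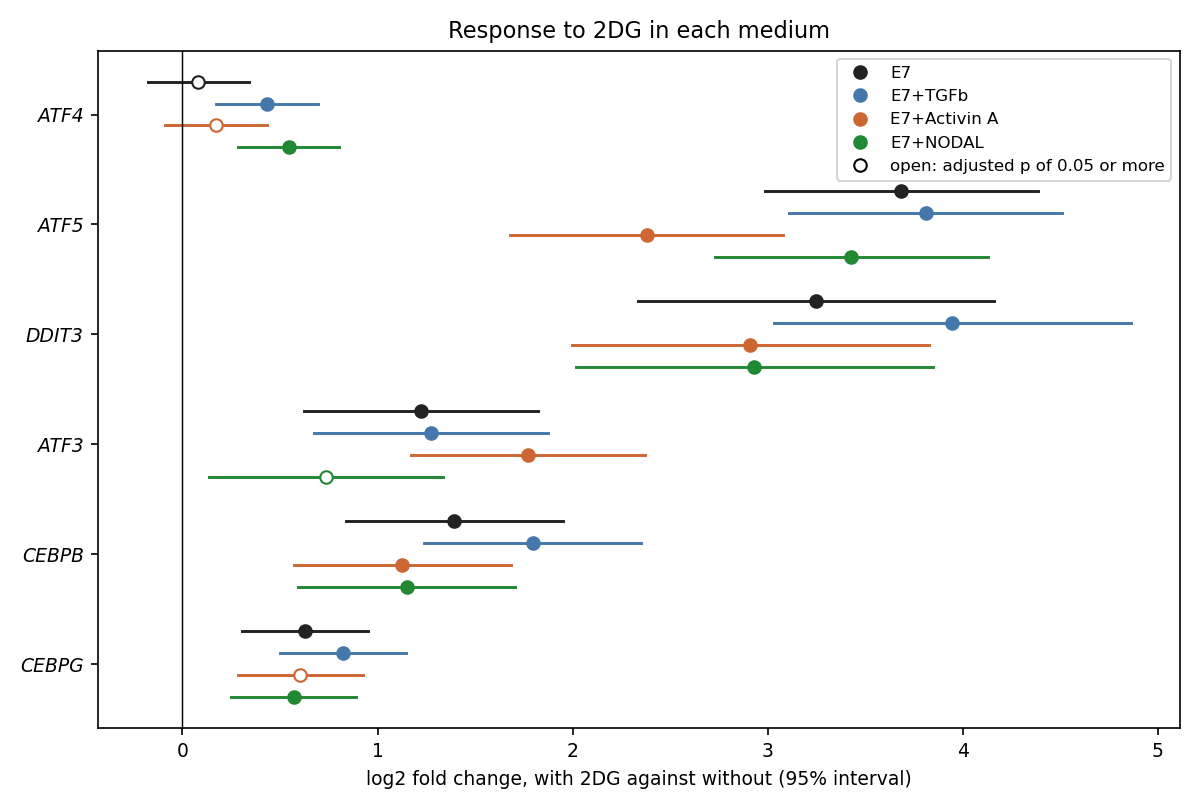
Log2 fold change with 2DG against without (x axis) for the 6 genes in 4 media, with 95% intervals from the limma model and filled points at an adjusted p under 0.05. ATF5 and DDIT3 lie between 2.38 and 3.95, and ATF4 between 0.08 and 0.54.

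The members changed by different factors. Relative to ATF4 in the same library, a ratio that does not depend on library scaling, the mean log2 change with 2DG over the 4 media was 3.02 for ATF5, 2.95 for DDIT3, 1.06 for CEBPB, 0.94 for ATF3 and 0.35 for CEBPG. An exact permutation test of 2DG labels within media gave p = 0.00154 for ATF5, DDIT3 and CEBPB, the smallest that 1296 relabellings allow, p = 0.00309 for ATF3 and p = 0.0139 for CEBPG (two-sided, 5 tests, unadjusted). The ratio was higher with 2DG in each medium for each of the 5, with lowest values of 2.21 for ATF5, 2.39 for DDIT3, 0.61 for CEBPB, 0.19 for ATF3 and 0.03 for CEBPG. Per kilobase of exon, ATF4 had 3821 normalised reads in E7, CEBPG 371, CEBPB 144, ATF3 61.7, ATF5 54.5 and DDIT3 29.5. With 2DG in E7 the levels per kilobase were 4041 for ATF4, 706 for ATF5, 574 for CEBPG, 379 for CEBPB, 287 for DDIT3 and 145 for ATF3. ATF5 moved from the fifth of the 6 levels to the second.

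Across the groups, the order of levels was similar among the 2DG groups for ATF4, ATF5, CEBPB, CEBPG and DDIT3. E7+TGFb+2DG had the highest mean for each of these 5, followed by E7+2DG. The libraries of these 2 groups overlapped in each of the 5 but CEBPG. ATF5 then had 1326 ± 71.0 normalised reads in E7+NODAL+2DG and 1003 ± 696 in E7+ActivinA+2DG (mean ± SD, n = 2), and the other 4 genes had the reverse order of these groups, with overlapping libraries for ATF4, ATF5, CEBPB and CEBPG and separate ones for DDIT3. For ATF3 the highest mean was E7+ActivinA+2DG, 703 ± 423, which overlapped E7+TGFb+2DG and rested on replicate 2. Without 2DG, E7+NODAL had the lowest mean for ATF4, ATF5, CEBPG and DDIT3. Its libraries were separate from the next group for ATF4 and ATF5, and overlapped E7+ActivinA for CEBPG and E7+TGFb for DDIT3.

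Few differences of the members with a ligand passed the test. The 6 comparisons that follow share their E7 or E7+2DG libraries and are not independent. TGFb called 0 members without 2DG and 0 with it, where limma called 0% of all genes in each. EdgeR called no gene in either, and DESeq2 called 213 genes without 2DG and 0 with it, none of them members. At an unadjusted p under 0.05, limma had 3771 genes without 2DG and 273 with it, and ATF4 was the 1 member among them, at -0.29 ± 0.12 without 2DG (adjusted p = 0.188). That ATF4 difference passed without the 4 Activin A libraries (adjusted p = 0.00275) or without either E7+ActivinA library (0.0111 and 0.0113). The 95% intervals of the TGFb difference with 2DG ran from -0.20 to 0.32 for ATF4 and from -0.76 to 1.07 for DDIT3.

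ATF4 fell with NODAL without 2DG, with 6712 and 6085 normalised reads against 9251 and 9961 in E7. On the log2 scale this was -0.59 ± 0.12 (SE, limma adjusted p = 0.00537), and it was the 1 member called, against 10.9% of all genes called lower. Leaving out replicate 2 of E7 (-0.53, adjusted p = 0.062) or of E7+NODAL (-0.52, adjusted p = 0.0687) ended the call. Scaling to the same total moved the median of all genes to 0.13 in this comparison, and ATF4 was then at -0.46, or -0.60 relative to that median. Under quantile normalization it was at -0.38 (adjusted p = 0.0281), or -0.35 relative to the median there. ATF5, CEBPB, CEBPG and DDIT3 were also below E7 in both libraries, at -0.39, -0.29, -0.29 and -1.10, and none passed. In all, 5 of 6 members had both libraries below both of E7, as did 32.9% of tested genes. DDIT3 passed without any 1 Activin A library (adjusted p 0.0148 to 0.0467), and CEBPG without either E7+ActivinA+2DG library (0.0185 and 0.0186).

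NODAL with 2DG gave lower values of all 6 members than 2DG alone, without a limma call. Both libraries lay below both of E7+2DG in 6 of 6 members, as they did in 30.1% of all tested genes. DDIT3 differed most, with 145 and 132 against 321 and 428, which is -1.41 ± 0.43 on the log2 scale (SE, adjusted p = 0.147). ATF5 was at -0.65, ATF3 at -0.54, CEBPB at -0.54, CEBPG at -0.34 and ATF4 at -0.12, with adjusted p from 0.276 to 0.599. Among the members, 2 had an unadjusted p under 0.05, edgeR called 0 and DESeq2 called DDIT3 (adjusted p = 0.0113). Of all genes limma called 0.209% lower here. Without the 4 Activin A libraries, whose replicates differed most, 5 members were called lower (adjusted p 0.00076 to 0.0139) and ATF4 was not. Without a single Activin A library, DDIT3 was called on leaving out either E7+ActivinA library (0.0125 and 0.0131), and ATF5 and CEBPG on leaving out either E7+ActivinA+2DG library (0.0403 to 0.0441).

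Activin A with 2DG gave 1 call among the members, against 3.25% of all genes called lower. ATF5 had 511 and 1496 normalised reads, against 1881 and 2289 with 2DG alone, which is -1.25 ± 0.33 on the log2 scale (SE, limma adjusted p = 0.0308). The call rested on 1 library: without E7+ActivinA+2DG replicate 1 the value was -0.47 (adjusted p = 0.180). It was also lost without E7+2DG replicate 1 (-1.39, adjusted p = 0.096) or replicate 2 (-1.10, adjusted p = 0.219), in edgeR (-1.06, adjusted p = 0.0559) and in DESeq2 (-1.05, adjusted p = 0.0912). Without E7+ActivinA+2DG replicate 2 ATF5 was at -2.02 (adjusted p = 1.47e-05). In 4 other members the direction turned with the library left out. ATF3 was at 0.78 without replicate 1 (adjusted p = 0.0111) and -0.53 without replicate 2 (0.0564). CEBPB was at 0.002 (0.999) and -0.94 (0.0291), CEBPG at 0.06 (0.907) and -0.60 (0.00147), and DDIT3 at 0.03 (0.994) and -1.27 (0.113), in the same order, while ATF4 stayed below 0. Without 2DG, limma, edgeR and DESeq2 called 0 members with Activin A, against 10% of all genes called by limma, and 0 had an unadjusted p under 0.05. Leaving out E7+ActivinA replicate 1 brought ATF4 past the threshold (-0.44, adjusted p = 0.00186) and leaving out replicate 2 put it at 0.02 (0.919), and leaving out either E7+ActivinA+2DG library did so for ATF3 (-0.42, 0.0472 and 0.0488).

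**Figure D3:**
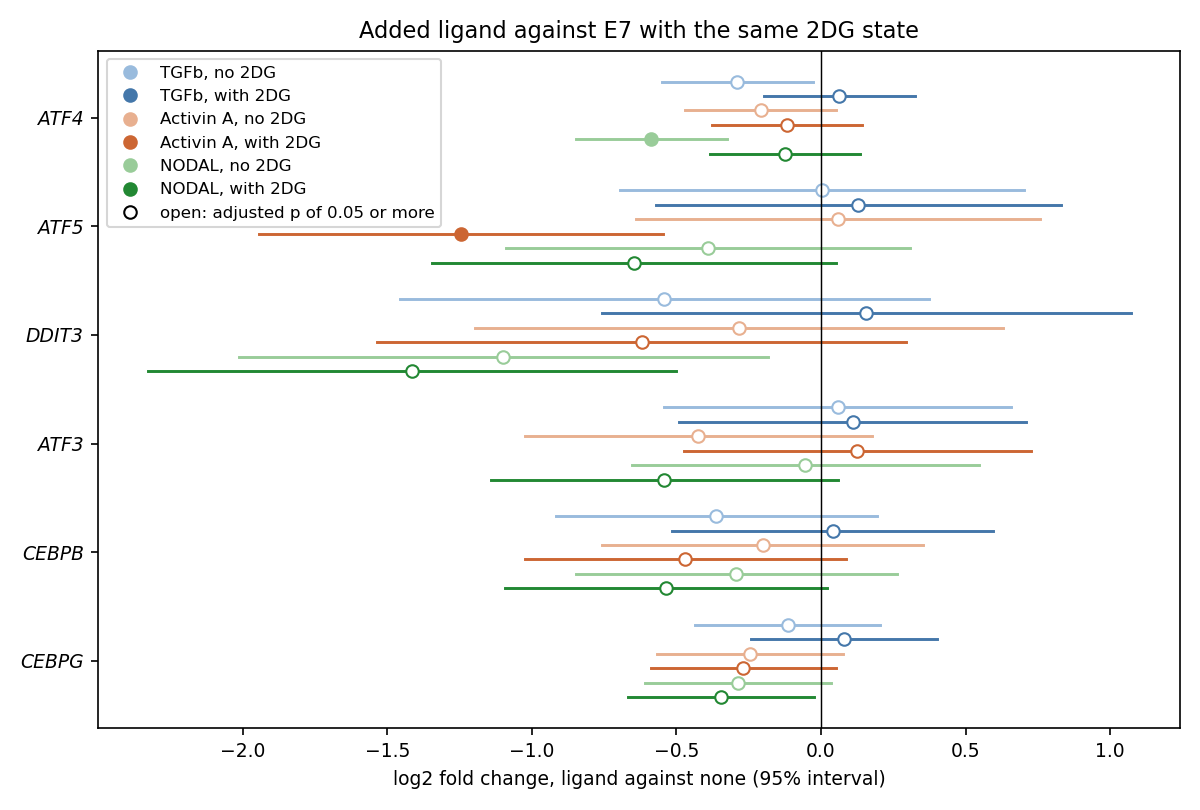
Log2 fold change with a ligand against E7 with the same 2DG state (x axis), with 95% intervals from the limma model and filled points at an adjusted p under 0.05. Only ATF4 with NODAL without 2DG and ATF5 with Activin A and 2DG are filled, and all 6 genes lie below 0 with NODAL and 2DG.

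Whether a ligand changed the response to 2DG was tested as an interaction, the difference between the 2DG response with the ligand and that in E7 alone. Limma, edgeR and DESeq2 called 0 members for TGFb, Activin A and NODAL, and limma called 0%, 0.0419% and 1.87% of all genes. ATF5 with Activin A (-1.31 ± 0.46, SE, adjusted p = 0.379) and ATF4 with NODAL (0.46 ± 0.17, adjusted p = 0.113) had an unadjusted p under 0.05. The ATF4 term for NODAL passed without either E7+ActivinA library (0.00413 and 0.00424) or all 4 Activin A libraries (adjusted p = 0.000868), and without those 4 the ATF3 term did too (-0.49, adjusted p = 0.0322). The ATF4 term for TGFb, 0.35 ± 0.17, passed in the same way (0.0466 and 0.0472, and 0.015 without the 4). The Activin A terms depended on which E7+ActivinA+2DG library was left out. The ATF5 term was -0.53 without replicate 1 (adjusted p = 0.506) and -2.08 without replicate 2 (0.00363), and the ATF3 term 1.20 (0.0301) and -0.10 (0.846).

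The 2 libraries of E7+ActivinA+2DG differed in 5 of the 6 members together. Replicate 2 was above replicate 1 by 1.55 (log2) in ATF5, 1.31 in ATF3, 1.31 in DDIT3, 0.94 in CEBPB and 0.66 in CEBPG, and by 0.13 in ATF4. The median difference was 0.89 over the ATF4 target list, -0.002 over all tested genes and 0.05 over the other bZIP factors. In E7+ActivinA the replicates differed by -1.26 in DDIT3, on 52 and 21 recovered reads, and by -0.46 in ATF4, which is in the opposite direction. Over the 8 libraries with 2DG, Pearson's r between members ran from 0.51 (ATF3 and ATF5) to 0.96 (CEBPB and CEBPG), and over the 8 without from -0.26 (ATF3 and ATF5) to 0.85 (ATF4 and ATF5). These libraries share media, and the values describe them only.

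The genes that ATF4 is known to activate rose with 2DG in all 4 media, also in E7, where the ATF4 transcript was not called. Of 45 tested targets, limma called 40 higher and 1 lower in E7, with a median log2 fold change of 1.21 against -0.003 over all genes. It called 39 higher and 0 lower with TGFb, 35 and 0 with Activin A (42 and 0 without E7+ActivinA+2DG replicate 1), and 37 and 0 with NODAL. Of all genes limma called 14.8% lower in E7, 4.37% with TGFb, 0.221% with Activin A and 2.76% with NODAL, beside the shares called higher given above. Without E7+ActivinA+2DG replicate 1, 5.13% of all genes were called higher and 4.59% lower in the Activin A medium, and the counts of all lists without that library are to be read against these shares. The summed level of the list was 98235 to 114693 normalised reads without 2DG and 143813 to 250432 with it, and the lowest library with 2DG was E7+ActivinA+2DG replicate 1. The lists were not refit without replicate 2 of that group, so the list counts without replicate 1 show 1 side only. In E7, SLC1A4, an exchanger of neutral amino acids, rose from 21.8 to 339 normalised reads (3.91 ± 0.37), and INHBE, an activin subunit, rose from 119 to 1696 (3.83 ± 0.32, log2 fold changes with SE, n = 2). DDIT4, an inhibitor of mTORC1, rose by 3.13 ± 0.37 and SLC7A11, the cystine carrier, by 2.93 ± 0.38. With TGFb, TRIB3, a pseudokinase that restrains ATF4, rose from 113 to 913 (3.01 ± 0.34), and with NODAL, CHAC1, which breaks down glutathione, rose from 158 to 930 (2.54 ± 0.31). Against E7+2DG, 0 targets were called with NODAL and 2DG and the list median was -0.34.

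**Figure D4:**
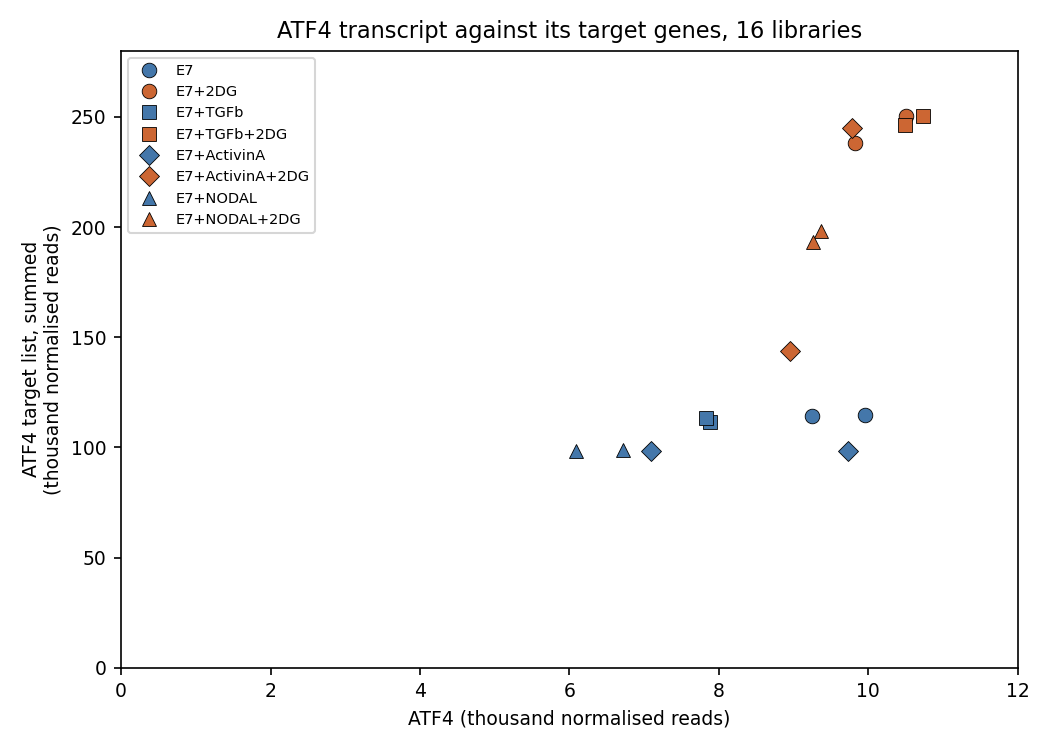
Summed level of the ATF4 target list against the ATF4 transcript, on linear axes of normalised reads, in the 16 libraries. Libraries with 2DG (orange) have sums of 143813 to 250432 normalised reads and those without (blue) 98235 to 114693, while the 2 sets overlap in ATF4.

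The CHOP target list shares TRIB3, CHAC1, WARS and DDIT4 with the list above and is not separate evidence. Of its 13 tested genes, 8 were called higher and 1 lower with 2DG in E7, 6 and 0 with TGFb, 5 and 0 with Activin A (8 and 0 without E7+ActivinA+2DG replicate 1) and 4 and 1 with NODAL. Its median log2 fold change in these media was 0.59, 0.58, 0.55 and 0.19, against the medians of all genes given above. TRIB3 rose by 1.49 ± 0.34 (SE, limma adjusted p = 0.0217) to 436 normalised reads in the NODAL medium. In the TGFb medium it rose by 3.01 ± 0.34 (adjusted p = 0.000214) to 913. CHAC1 rose by 2.54 ± 0.31 with NODAL and by 2.92 ± 0.31 with TGFb, and WARS by 1.30 ± 0.19 and 1.54 ± 0.19. The part of DDIT3 in these values was not tested.

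Genes of the eIF2alpha arm did not move in 1 direction. Of 18 tested genes of the eIF2alpha arm, 4 were called higher and 7 lower with 2DG in E7, 3 and 2 with TGFb, 0 and 0 with Activin A (3 and 0 without E7+ActivinA+2DG replicate 1) and 0 and 2 with NODAL. In E7 these are 4 of 18 and 7 of 18, where limma called 14.6% of all genes higher and 14.8% lower. PPP1R15A, the inducible subunit that brings a phosphatase to eIF2alpha, is also on the CHOP target list. It rose by 0.63 ± 0.18 in E7 and by 0.70 ± 0.18 with TGFb (SE, limma adjusted p = 0.0195 and 0.0283). EIF2S1, which encodes eIF2alpha itself, fell by 0.54 in E7 (adjusted p = 0.00276). EIF2AK2, the kinase PKR that senses double-stranded RNA, rose by 0.55 ± 0.18 in E7 (adjusted p = 0.0349), and EIF2AK3, the kinase PERK of the endoplasmic reticulum, rose by 0.38 ± 0.06 as a mean over the 4 media (adjusted p = 0.000452). EIF2AK4, the kinase GCN2 that senses uncharged tRNA, fell by 0.61 with NODAL (adjusted p = 0.0178) and by 0.49 with TGFb (adjusted p = 0.0359).

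In the ATF6 and XBP1 arm, 10 of 24 tested genes were called higher and 1 lower with 2DG in E7, 15 and 0 with TGFb, 2 and 0 with Activin A (9 and 0 without E7+ActivinA+2DG replicate 1) and 16 and 0 with NODAL. HERPUD1, a part of the degradation machinery of the endoplasmic reticulum, rose by 1.42 ± 0.18 in E7 and by 1.49 ± 0.18 with NODAL (SE, limma adjusted p = 0.000339 and 0.000498). HSPA5, the chaperone BiP, rose with NODAL from 11784 to 20132 normalised reads (0.77 ± 0.09, adjusted p = 0.000498). In the NODAL medium without 2DG, where ATF4 was lowest, 13 of the 24 were called lower than in E7 and 1 higher, against 10.9% of all genes called lower. HSPA5 fell there by 0.61 (adjusted p = 0.00108) and XBP1 fell by 0.54 (adjusted p = 0.00812).

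Most other bZIP factors, a list that shares XBP1 with the one above, were not called with 2DG. Of 41 tested, 10 were called higher and 2 lower in E7, 7 and 1 with TGFb, 3 and 0 with Activin A and 4 and 0 with NODAL. Without E7+ActivinA+2DG replicate 1, more genes of this list were called in the Activin A medium, as were more of all genes. Of all genes limma called 14.6% higher in E7, 5.47% with TGFb, 1.48% with Activin A and 3.11% with NODAL. The share of this list called higher was above that of all genes in each medium. As a mean over the 4 media, 15 of the 41 were called higher and 4 lower, against 19.2% of all genes called higher. Their median log2 fold change in E7 was 0.13, against 1.31 for the 6 members. MAFG, a small Maf protein without an activation domain, rose by 1.18 ± 0.15 in E7, 1.03 ± 0.15 with TGFb, 0.85 ± 0.15 with Activin A and 0.95 ± 0.15 with NODAL (SE, limma adjusted p at most 0.013). JDP2, a Jun dimerisation partner that is also on the ATF4 target list, rose by 1.21 ± 0.22 with TGFb and by 1.10 ± 0.22 with NODAL (adjusted p = 0.00491 and 0.012). NFE2L1, a factor tethered to the endoplasmic reticulum that acts on proteasome genes, rose from 2811 to 6322 normalised reads in E7 (1.17 ± 0.16, adjusted p = 0.000573). Of 11 tested immediate early genes, 1 was called higher and 3 lower in E7, against 14.6% and 14.8% of all genes, and IER3, a gene induced by growth factors and stress, fell by 1.38 (adjusted p = 0.000229).

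For each member, the 3 other genes whose log2 levels followed it most closely over the 16 libraries were taken from 10701 genes with a mean of at least 100. ATF5 was followed by ASNS, asparagine synthetase (Pearson's r = 0.991), CHAC1 (0.988) and SHMT2, a mitochondrial serine enzyme (0.987). CEBPB was followed by SLC3A2 (0.977), then CHAC1 and SARS (0.974), and CEBPG by EIF2S3 (0.986), MTHFD2 (0.986) and CARS (0.981). DDIT3 was followed by GARS (0.984), HERPUD1 (0.981) and TAC1 (0.979). All of these but EIF2S3, HERPUD1 and TAC1 are on the ATF4 target list. ATF3 was followed by CD55, a complement regulator (0.974), HMOX1, the inducible heme oxygenase (0.973), and HSPB8, a small heat shock protein (0.972). ATF4 itself was followed by GHITM (0.969), UCHL1 (0.966) and HSP90B1, a chaperone of the endoplasmic reticulum (0.960), and by no gene of its target list among these 3. The 16 libraries form 8 groups that share media, so these values are a description.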

How the data were processed

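The authors deposited a normalised signal for each gene, which the values show to be its reads over a size factor of the library. Tools listed in the submitters' processing notes are DESeq2 1.26.0, featureCounts 1.5.3, STAR and Trimmomatic 0.36, with the build hg38 and no roles. The annotation, the strand setting and the gene filter are not given in the sources used here. Each value was a whole multiple of the value of 1 read within a tolerance of 1e-06 (100% of values), so whole reads were recovered, and every listed gene had at least 1 in each library. A gene was tested if 2 or more libraries had 10 or more normalised reads (16714 genes).

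Limma 3.58.1 (R 4.3.3) with an intensity trend was fitted to log2(value + 1) with 8 group means over all 16 libraries, so low genes have understated fold changes. It gave 14 comparisons, with two-sided p-values adjusted by Benjamini-Hochberg over all tested genes within each, and calls at an adjusted p under 0.05. Each SE of a log2 fold change pools the spread within all 8 groups and is not that of the compared libraries alone. The same code was tested on simulated data. Alternatives were TMM factors, the same total, quantile normalization, pseudocounts of 0.5 and 8, robust fitting, no filter, a minimum mean of 50, only the libraries compared, no Activin A libraries, a replicate block, each library left out in turn (the lone library of its group is then assumed to vary like the other groups), and count tests of the recovered reads (DESeq2 1.42.0, edgeR 4.0.16). Gene positions, exon lengths and leaders came from GENCODE 29, and promoters from RefSeq, which had a window for 6 of 6 members.

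The members, the lists and the tests were chosen with earlier results of these data known. From each list, up to 4 called genes with the largest change and a higher group mean of at least 100 could be named in a comparison. List counts without E7+ActivinA+2DG replicate 1 were added after seeing the data, and none were computed without replicate 2.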

Additional observations from a re-analysis of the deposited data

How the results depend on the processing

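Over 84 single-gene differences of the 6 members, 2399 alternative values were computed, of which 2275 kept their side of the threshold, 66 lost it, 58 gained it and 0 changed sign while called. Counts of called members in the 2DG comparisons moved by over 1.5 times in few cases. With only the 4 libraries compared, 0 members were called with 2DG in the Activin A medium. Leaving out 1 library gave 3 to 5 members with 2DG in E7, 3 to 6 with TGFb, 2 to 5 with Activin A, 2 to 6 with NODAL and 6 in the mean over the media.

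The ligand comparisons depended more on the Activin A libraries. With only the libraries compared, limma called 1 member for TGFb without 2DG, 3 for NODAL without 2DG, 0 for Activin A with 2DG, 5 for NODAL with 2DG, 1 for the TGFb interaction and 1 for the NODAL interaction. Without the 4 Activin A libraries it called 1 for TGFb without 2DG, 4 for NODAL without 2DG, 5 for NODAL with 2DG, 1 for the TGFb interaction and 2 for the NODAL interaction. EdgeR and DESeq2 on the recovered reads called 0 for Activin A with 2DG, and DESeq2 called 1 for NODAL with 2DG. Leaving out 1 library gave 0 to 1 for TGFb without 2DG, 0 to 1 for Activin A without 2DG, 0 to 3 for NODAL without 2DG, 0 to 3 for Activin A with 2DG, 0 to 2 for NODAL with 2DG and 0 to 1 for each interaction. Why these counts moved was not tested.

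The ratios to ATF4 kept their side under the pseudocounts of 0.5 and 8 and each library left out, from 0.28 to 0.42 for CEBPG and from 2.84 to 3.19 for ATF5. Differences between replicates correlated by over 0.1 in 3 of 28 pairs of groups, with r from -0.39 to 0.24. Such a count cannot settle whether the replicate numbers pair the libraries. With the replicate block, 5 members were called with 2DG in the TGFb medium and 3 in the Activin A medium. DDIT3 rested on 13 to 52 recovered reads in the libraries without 2DG, and the part of depth in its differences was not tested.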
